A study of Mus musculus with 27 samples.

Results

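The clustered protocadherin genes were examined by DNA methylation in mouse hepatocytes. Members were the protein-coding genes on chromosome 18 of the GRCm38.p6 RefSeq gene table whose symbols begin with Pcdha, Pcdhb or Pcdhg, together with the CpG positions of the 1 Mb that holds the 3 clusters. The rule gave 57 of 21631 protein-coding genes on the autosomes and the X chromosome: 14 in the alpha cluster, 22 in the beta cluster and 21 in the gamma cluster. It used no methylation value. A position was kept when it was listed in at least 2 of 3 samples of every strain, which left 1335 of the 3836 positions listed in the region in at least 1 sample, and 1951485 positions over the genome.

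Samples came from the livers of 27 female mice aged 12 weeks and were labelled as hepatocytes, with 3 biological replicates of each of 9 inbred strains. WSB/EiJ, PWK/PhJ and CAST/EiJ are wild-derived, and the laboratory strains were NZO/HlLtJ, NOD/ShiLtJ, DBA/2J, C57BL/6J, A/J and 129S1/SvImJ. No treatment was given and no strain served as a control, so all strains were compared with each other. The study set genetic differences between strains beside differences in epigenetic marks and gene expression, and only its methylation data were analysed here.

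Clustered protocadherins are cell adhesion molecules of the neuronal surface. In the alpha and gamma clusters each variable exon has a promoter of its own, encodes the outer part of the protein and is spliced to constant exons shared by the whole cluster, whereas each beta gene is a single exon. In neurons a few isoforms are chosen at random in each cell, silent variable exons are methylated, and the factor CTCF binds the unmethylated promoters in use. The C-type isoforms, Pcdhac1, Pcdhac2, Pcdhgc3, Pcdhgc4 and Pcdhgc5, lie at the downstream ends of the alpha and gamma clusters and are expressed more constantly.

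Reduced representation bisulfite sequencing reads CpG-rich fragments cut at CCGG, and the deposited value is the percentage of cytosines read as methylated at a position. A percentage is an average over the molecules of many cells, so that a mixture of methylated and unmethylated cells cannot be told apart from partial methylation in every cell. The tables hold percentages without read counts, and the depth is therefore unknown. Between 2904787 and 3156965 positions were listed per sample, of which 2032 to 2359 lay in the protocadherin region. As a check of the labelled cell type, 8 of 11 hepatocyte marker genes had a measured end. Their 9 ends lay between 2.92 and 88.1%, with a median of 17.0%. The 4 ends of Kupffer and blood cell markers lay between 78.2 and 96.3%. For markers of other liver cells, 3 endothelial ends lay between 3.13 and 74.8%, 4 stellate cell ends between 6.08 and 62.3%, and 6 bile duct ends between 5.05 and 91.4%. The hepatocyte range overlapped those of all the other lists. These levels are methylation and not expression.

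The level at a gene was the mean over positions within 3 kb of its start, the end at the lower coordinate, which holds the variable exon or the single beta exon. Of the 57 genes, 44 had at least 5 positions there and were tested. Pcdha12, Pcdhb6, Pcdhb10 and Pcdhb14 had 1 to 4 positions, and 9 genes had none: Pcdha6, Pcdha9, Pcdhb4, Pcdhb5, Pcdhb8, Pcdhb11, Pcdhb12, Pcdhb19 and Pcdhb21. Beta genes were therefore the least covered, with 12 of 22 tested, against 11 of 14 alpha and 21 of 21 gamma genes. Of the 1335 positions, 1038 (77.8%) lay in the first 3 kb after a start. Windows of neighbouring genes shared 35 positions.

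Protocadherin starts were mostly at intermediate levels. The mean over the 9 strains ran from 2.76 to 86.0% with a median of 42.3%, and 36 of 44 starts lay between 20 and 80%. Of all 22710 ends of protein-coding genes with at least 5 positions, 17.97% lay in that range, and their median was 7.61%. The Hox genes, another set of clustered genes, had 0 of 78 ends in that range and a median of 5.24%.

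**Figure D1:**
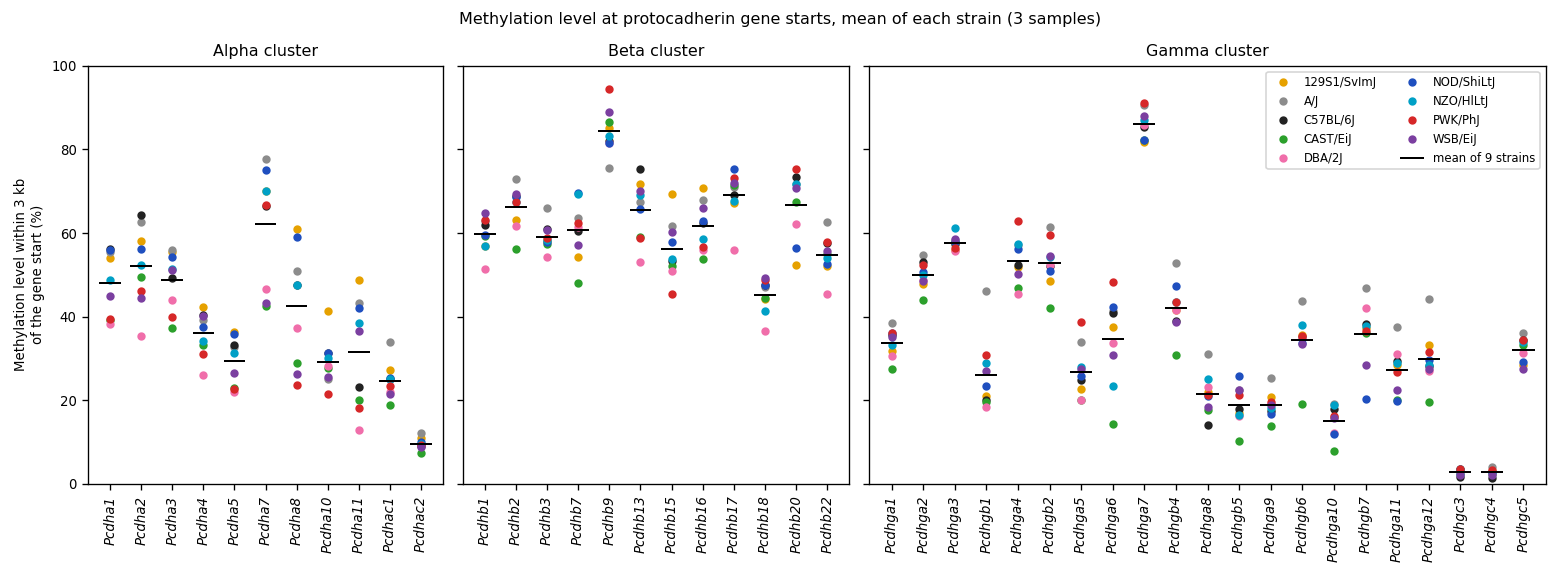
Methylation level within 3 kb of each protocadherin gene start (y axis, percent), with genes in order along the chromosome. Each point is the mean of 3 samples of a strain and each line the mean of 9 strains; beta starts lie between 45.2 and 84.3%, and Pcdhgc3 and Pcdhgc4 lie at 2.76 and 2.79%.

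Single positions were less often at intermediate levels than starts, but more often than positions over the autosomes. In each sample 37.5 to 43.8% of the region's positions lay between 20 and 80%, with a mean of 40.8% ± 1.86 (SD, n = 27), against 10.5% ± 0.319 over the autosomes outside it. The difference was 30.3 points ± 1.76 (SD) and was above 0 in 27 of 27 samples. For positions of the Hox genes the share was 6.93% ± 1.41. By cluster it was 61.3% in beta, 44.6% in alpha and 38.3% in gamma. Averaged over strains, 13.2% of alpha and 16.6% of gamma positions had a mean under 2.5%. Values on the opposite strands of a CpG followed each other: over 511 CpGs listed on both strands the median difference was 1.78 points and Pearson's r was 0.98, a correlation across CpGs whose strands share the sample and the site.

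The clusters differed in level. Over all positions of a cluster the mean of 27 samples was 33.2% in alpha (355 positions), 63.7% in beta (149 positions) and 28.0% in gamma (705 positions), beside 30.5% over the autosomes. These means mix different parts of the genes. Without the C-type, the first 500 bp averaged 36.2% in alpha, 45.1% in beta and 19.3% in gamma. From 500 bp to 3 kb the means were 47.9, 67.4 and 47.0%. Beta had 20 positions in the first part and 120 in the later one, and gamma 181 and 252. Among alpha genes Pcdha7, Pcdha2 and Pcdha3 had the highest starts, at 62.1, 52.1 and 48.8%, and Pcdhac2, Pcdhac1 and Pcdha10 the lowest, at 9.62, 24.7 and 29.1%. At Pcdhac1 27 of 52 positions lay after the start, and its first 500 bp averaged 42.7% over 24 positions. Its low rank thus rests on positions before the start. In beta, Pcdhb9, Pcdhb17 and Pcdhb20 were highest, at 84.3, 69.2 and 66.8%, and Pcdhb18, Pcdhb22 and Pcdhb15 lowest, at 45.2, 54.8 and 56.1%. In gamma, Pcdhga7, Pcdhga3 and Pcdhga4 were highest, at 86.0, 57.7 and 53.4%, and Pcdhgc3, Pcdhgc4 and Pcdhga10 lowest, at 2.76, 2.79 and 15.1%. The median step between adjacent measured starts was 9.78 points in alpha, 9.49 points in beta and 17.7 points in gamma, and the largest step was 51.3 points, in gamma. Pcdha7, Pcdhb9, Pcdhb17, Pcdhb20, Pcdhb22 and Pcdhga7 were measured only beyond 500 bp from the start, and Pcdhb18 had 4 of 12 positions after it. Ranks and steps thus also depend on which part was read.

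The 3 lowest starts were of the C-type. Pcdhgc3 had 138 positions and a mean of 2.76%, with samples from 0.465 to 4.4%. Pcdhgc4 had 30 positions and a mean of 2.79%, with samples from 0.971 to 6.23%. Pcdhac2 had 94 positions and samples from 7.14 to 12.8%. Pcdhac1 and Pcdhgc5 were higher, with samples from 17.4 to 34.0% and from 22.5 to 38.3%, so the 5 C-type genes did not form a single group by level. Within Pcdhac2 the level was 2.14% in the first 500 bp (49 positions) and 17.8% from 500 bp to 3 kb (45 positions).

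Level also varied with distance into the exon. In 23 genes with at least 3 positions in both parts, the level from 500 bp to 3 kb was above that in the first 500 bp in 19 and below it in 4, with a median difference of 18.2 points. In the 10 gamma genes among these without the C-type the first 500 bp held low levels, from 10.5% at Pcdhga11 to 31.4% at Pcdhga3. In all, 13 gamma genes without the C-type had positions in the first 500 bp. In 15 gamma genes with at least 3 positions in the later part, its level was mostly lower in genes farther along the cluster: it was 80.7% at Pcdhga1, 84.5% at Pcdhga2 and 77.1% at Pcdhga3, 66.5% at Pcdhga4, 61.3% at Pcdhgb2, 48.6% at Pcdhgb4, 20.9% at Pcdhga10 and 31.4% at Pcdhga11. Pcdhga5, at 27.03%, and Pcdhga7, at 86.0%, lay between Pcdhgb2 and Pcdhgb4 and stood apart from this order. The Spearman correlation of the later level with gene order was −0.79 over the 15 genes. In gamma that of the first 500 bp was −0.79 over 10 genes, and that of the whole start window −0.43 over 18 genes. For the later level it was 0.39 over 7 alpha genes without the C-type and −0.37 over 12 beta genes. Over the 5 of these alpha genes measured in both parts it was −0.7 for the later level and −0.8 for the first 500 bp. For the whole start window it was −0.53 over 9 alpha genes without the C-type and −0.14 over 12 beta genes. All are descriptions across genes that share libraries and neighbouring sequence. The 3 beta genes measured in both parts had higher later parts, by 45.5 points at Pcdhb1 (from 32.4 to 77.9%), 11.5 points at Pcdhb2 and 2.48 points at Pcdhb3. In Pcdha5, Pcdhac1, Pcdhgc4 and Pcdhgc5 the later part was lower, with Pcdha5 falling from 33.7 to 19.9%. These genes and distances were chosen after their values were seen.

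**Figure D2:**
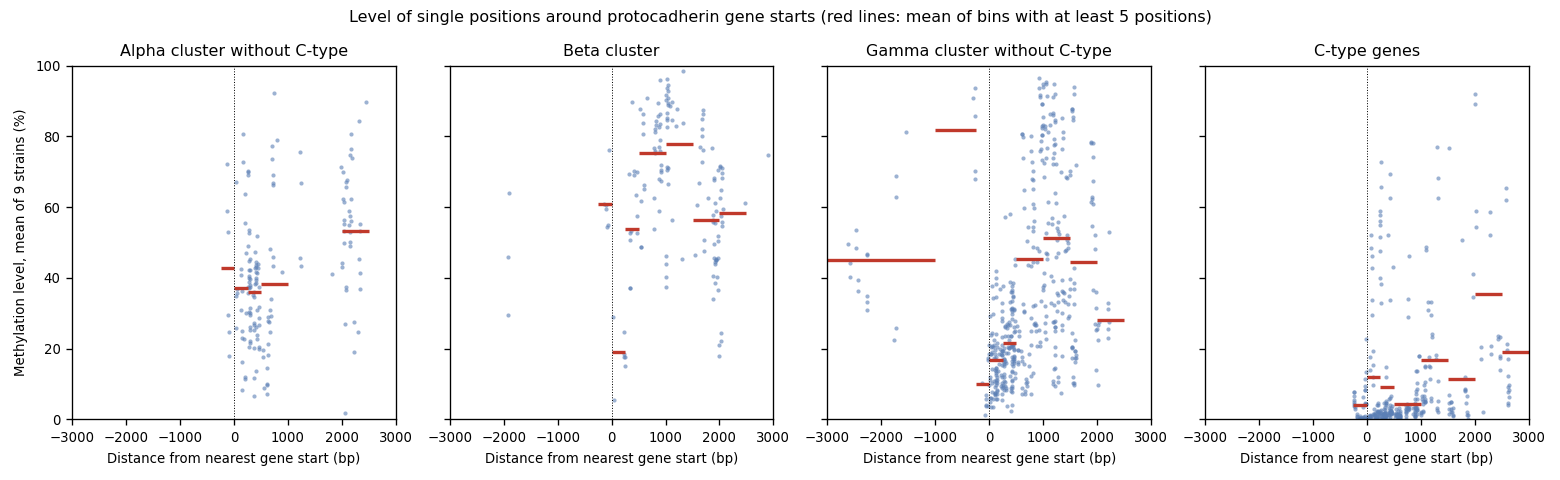
Mean methylation level over 9 strains of single CpG positions (y axis, percent) against distance from the nearest gene start in bp (x axis, positive inside the gene), by cluster and for the C-type genes. In gamma without the C-type the bins from 0 to 250 bp and from 250 to 500 bp average 16.8 and 21.6%, and those from 500 to 1000 bp and from 1000 to 1500 bp average 45.2 and 51.2%.

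The downstream ends, where the constant exons lie, were measured at few positions. The shared alpha end held 7 positions with a mean of 55.6% and strain means from 43.7 to 65.3%, which did not pass the test (adjusted p = 0.275, limma's moderated F test with Benjamini-Hochberg adjustment over all gene ends). Near the shared gamma end 16 positions had a mean of 80.3%, all of them beyond the last exon and toward Diaph1, a neighbouring formin gene. Strain means there ran from 77.4% in WSB/EiJ to 84.0% in PWK/PhJ (adjusted p = 0.0244, limma). Taf7, a transcription factor subunit gene inside the region between the beta and gamma genes, had 0.550% at its measured end.

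Strains were compared by limma's moderated F test over 15175 gene ends, with p adjusted by Benjamini and Hochberg over all of them. At an adjusted p under 0.05, 26 of 44 protocadherin starts (59.1%) differed among strains, beside 34% of all gene ends tested. Of the tested Hox ends, 48 of 76 (63.2%) passed as well, with a median span of 2.61 points. Among starts and ends with a mean of 10 to 90%, the figures were 24 of 41 (58.5%) and 40.9%. A stricter call, which also required strain means to span at least 25 points, was met by 5 of 44 starts (11.4%) beside 3.82% of all ends, and in the range of 10 to 90% by 12.2% beside 7.38%. Among those in that range the median span of strain means was 17.9 points at protocadherin starts and 8.85 points at all ends. Spread within strains was also wider, with a median pooled SD of 4.71 against 2.95 points.

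The share that differed varied with the cluster. In alpha 8 of 11 starts had an adjusted p under 0.05 (Pcdha1, Pcdha3, Pcdha4, Pcdha5, Pcdha8, Pcdha11, Pcdhac1 and Pcdhac2), in beta 4 of 12 (Pcdhb1, Pcdhb2, Pcdhb17 and Pcdhb18), and in gamma 14 of 21. The 7 gamma starts that did not pass were Pcdhga2, Pcdhga3, Pcdhga7, Pcdhga9, Pcdhgb5, Pcdhgc4 and Pcdhgc5. The stricter call was met by Pcdha8 and Pcdha11 in alpha (18.2%), by Pcdhgb1, Pcdhga6 and Pcdhgb7 in gamma (14.3%), and by no beta gene. The share of all gene ends was 3.82%. Whether the clusters differ in this share was not tested.

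Pcdha8, at 36992467 on chromosome 18, showed the widest span. Its level was 69.3, 60.2 and 53.5% in the 129S1/SvImJ samples, 57.8, 65.6 and 53.6% in NOD/ShiLtJ, 57.4, 47.5 and 48.2% in A/J, 47.8, 52.5 and 42.5% in C57BL/6J and 46.4, 47.2 and 49.0% in NZO/HlLtJ. It was 34.96, 28.4 and 48.2% in DBA/2J, 33.2, 29.3 and 24.5% in CAST/EiJ, 24.3, 28.5 and 25.7% in WSB/EiJ and 24.5, 23.6 and 23.1% in PWK/PhJ. All samples of CAST/EiJ, PWK/PhJ and WSB/EiJ thus lay below all samples of the other strains except the DBA/2J sample at 28.4%. Strain means spanned 37.3 points, from 23.7% ± 0.701 in PWK/PhJ to 61.0% ± 7.90 in 129S1/SvImJ (SD, n = 3), with an adjusted p of 1.85e-06 by limma's moderated F test. Without the 3 wild-derived strains the span was 23.8 points, under the 25 required, at an adjusted p of 0.0380. Of 25 positions around this start listed in all C57BL/6J samples, 1 was listed in no A/J sample and none was missing in this way from another strain, while 9 further positions were listed in CAST/EiJ, 7 in WSB/EiJ, 4 in NOD/ShiLtJ, 3 in PWK/PhJ and 1 in NZO/HlLtJ but in no C57BL/6J sample. At the single positions nearest to Pcdha8, 8 passed the stricter call on their own.

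Pcdha11, at 37010858, was measured at 9 positions. It was 66.7, 44.4 and 35.6% in 129S1/SvImJ, 57.8, 33.3 and 38.9% in A/J, 49.5, 33.0 and 43.9% in NOD/ShiLtJ, 35.6, 44.4 and 35.6% in NZO/HlLtJ and 33.8, 35.2 and 40.7% in WSB/EiJ. It was 38.0, 20.4 and 11.1% in C57BL/6J, 7.41, 25 and 27.8% in CAST/EiJ, 22.8, 15.5 and 16.5% in PWK/PhJ and 13.3, 1.85 and 23.2% in DBA/2J. Samples of a strain spread widely here, and the DBA/2J samples lay below all 129S1/SvImJ samples. Strain means ran from 12.8% ± 10.7 in DBA/2J to 48.9% ± 16.0 in 129S1/SvImJ (adjusted p = 0.0118, limma). Without the 3 wild-derived strains the adjusted p was 0.0612. Of 15 positions around this start with a value in every C57BL/6J sample, 5 had none in PWK/PhJ, which had a further 14 that no C57BL/6J sample listed, and no other strain differed from C57BL/6J in this way.

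Other alpha starts differed with narrower spans. Pcdha1, chosen here after its values were seen, had an adjusted p of 1.24e-05 (limma) and a span of 17.9 points: every sample of C57BL/6J, NOD/ShiLtJ, A/J and 129S1/SvImJ was at 50.7% or above, and every sample of CAST/EiJ, DBA/2J and PWK/PhJ at 43.6% or below. Pcdhac2 was 12.8, 12.3 and 11.3% in A/J and 7.87, 7.14 and 7.14% in CAST/EiJ, a span of 4.76 points that passed at an adjusted p of 3.87e-05 (limma). Pcdhac1 was 33.6, 34.0 and 34.0% in A/J, above every other sample, and 17.9, 17.4 and 21.1% in CAST/EiJ (span 15.03 points, adjusted p = 0.000566, limma). Pcdha2 spanned 29.0 points, from 35.3% in DBA/2J to 64.3% in C57BL/6J, with an adjusted p of 0.0685 (limma). Its adjusted p came under 0.05 without 129S1/SvImJ replicate 2 (0.0280), A/J replicate 3 (0.0415), CAST/EiJ replicate 4 (0.0224) or NOD/ShiLtJ replicate 3 (0.0497). Pcdha7, with 5 positions and a span of 35.1 points, did not pass (adjusted p = 0.370, limma).

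**Figure D3:**
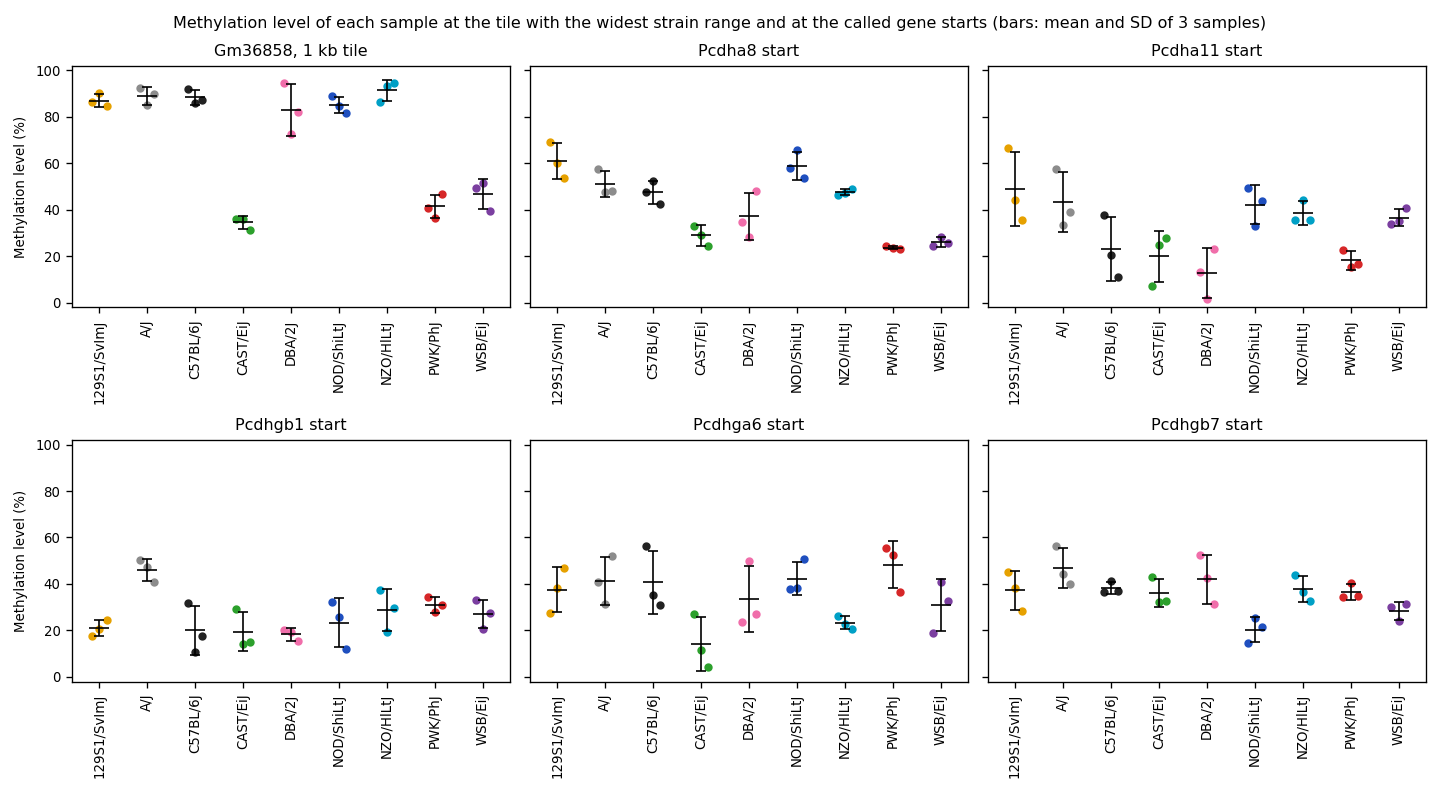
Methylation level of each of the 27 samples (points, y axis in percent) by strain, with the mean and SD of 3 samples, at the 1 kb tile in Gm36858 and at the 5 gene starts that met the stricter call. At Pcdhgb1 the A/J samples, at 41.0 to 50.3%, lie above all others, and at Pcdhgb7 the NOD/ShiLtJ samples lie between 14.6 and 25.2%.

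In gamma, the 3 called genes had 3 different lowest strains. Pcdhgb1, at 37680272 with 6 positions, was 50.3, 47.2 and 41.0% in A/J, and the other 24 samples lay between 10.7 and 37.4%. Its strain means ran from 18.3% ± 2.65 in DBA/2J to 46.2% ± 4.76 in A/J (adjusted p = 0.0268, limma). The call was lost without A/J replicate 1 (0.104), A/J replicate 2 (0.0878) or A/J replicate 3 (0.0507), without CAST/EiJ and PWK/PhJ (0.0548), without the 3 wild-derived strains (0.0659), and without A/J, where the span was 12.65 points (0.461). Around this start 17 positions had a value in every C57BL/6J sample, and 8 of these had none in CAST/EiJ, 6 none in DBA/2J, 4 none in A/J and 2 none in PWK/PhJ. In turn 12 positions had a value in every PWK/PhJ sample but in no C57BL/6J sample, as had 4 each in A/J, CAST/EiJ and DBA/2J.

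Pcdhgb7, at 37751619 with 18 positions, was 14.6, 25.2 and 21.4% in NOD/ShiLtJ, and 56.4, 44.1 and 39.9% in A/J. The other 21 samples lay between those of WSB/EiJ, at 30.03, 24.0 and 31.4%, and the DBA/2J sample at 52.4%, so that NOD/ShiLtJ overlapped with WSB/EiJ only. Means were 20.4% ± 5.38 in NOD/ShiLtJ and 46.8% ± 8.58 in A/J (adjusted p = 0.00955, limma). Without A/J replicate 1 or NOD/ShiLtJ replicate 1 the span fell to 21.6 and 23.5 points, under the 25 required, at adjusted p of 0.0164 and 0.0481, and without A/J altogether it was 21.7 points (0.0218). Of 34 positions here with a value in every C57BL/6J sample, 15 had none in NOD/ShiLtJ, 10 each none in CAST/EiJ and in DBA/2J, and 5 none in PWK/PhJ. Further positions listed in no C57BL/6J sample numbered 21 in A/J, 18 in DBA/2J, 16 each in NOD/ShiLtJ and CAST/EiJ, and 11 in PWK/PhJ.

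Pcdhga6, at 37707101 with 8 positions, was 27.1, 11.5 and 4.17% in CAST/EiJ and 55.4, 52.6 and 36.6% in PWK/PhJ. The other samples lay between 18.8 and 56.2%. Means were 14.3% ± 11.7 in CAST/EiJ and 48.2% ± 10.1 in PWK/PhJ (adjusted p = 0.0302, limma). The call was lost without CAST/EiJ replicate 4 (0.0935), CAST/EiJ replicate 5 (0.120), PWK/PhJ replicate 2 (0.0565) or PWK/PhJ replicate 3 (0.0559), with untransformed percentages (0.0533), and without CAST/EiJ and PWK/PhJ, where the span was 18.98 points (0.428). As a 1 kb tile with the same positions, its call was lost without these 4 samples and also without NZO/HlLtJ replicate 2 (0.0526) or replicate 3 (0.0544). All 8 positions listed in C57BL/6J were listed in at least 1 sample of every other strain.

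No beta gene met the stricter call. Pcdhb17, which had the lowest adjusted p in beta (0.00123, limma), was 59.1, 52.4 and 56.7% in DBA/2J, and the other 24 samples lay between 63.6 and 78.8%. Pcdhb18 was 35.9, 39.9 and 34.2% in DBA/2J, and the other samples lay between 39.4 and 52.8%, so that DBA/2J overlapped with NZO/HlLtJ alone (adjusted p = 0.00381, limma). Of the 12 positions of Pcdhb18, 4 lay after its start. Its window reaches back into Pcdhb17, so their levels may share positions. Pcdhb9 had samples from 66.7 to 100% over 6 positions and did not pass (adjusted p = 0.575, limma).

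Among the C-type gamma genes Pcdhgc3 passed with a span of 1.92 points (adjusted p = 0.0135, limma): C57BL/6J was lowest, at 1.61, 2.75 and 0.465%, and PWK/PhJ highest, at 3.14, 3.03 and 4.4%. Pcdhgc4 and Pcdhgc5 did not pass (adjusted p = 0.146 and 0.112, limma).

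Within a cluster some strains lay on 1 side of the mean at most starts. In alpha, 129S1/SvImJ and NOD/ShiLtJ were above the mean of the 9 strains at 11 of 11 starts, and CAST/EiJ and DBA/2J below it at 11 of 11. A/J was above it at 10 and PWK/PhJ below it at 10, while WSB/EiJ was below it at 8 and above it at 3. In gamma, A/J was above the mean at 21 of 21 starts and the highest strain at 14, and CAST/EiJ was below it at 17 and the lowest at 11. PWK/PhJ, low in alpha, was above the mean at 18 of 21 gamma starts. Other strains lay on both sides in gamma: 129S1/SvImJ and NOD/ShiLtJ were above the mean at 9 starts each, and C57BL/6J and WSB/EiJ at 8 each. In beta, DBA/2J was below the mean at 11 of 12 starts and the lowest at 6, and A/J and WSB/EiJ were above it at 11 each. Starts of a cluster share samples and lie close together, so these counts are not independent.

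**Figure D4:**
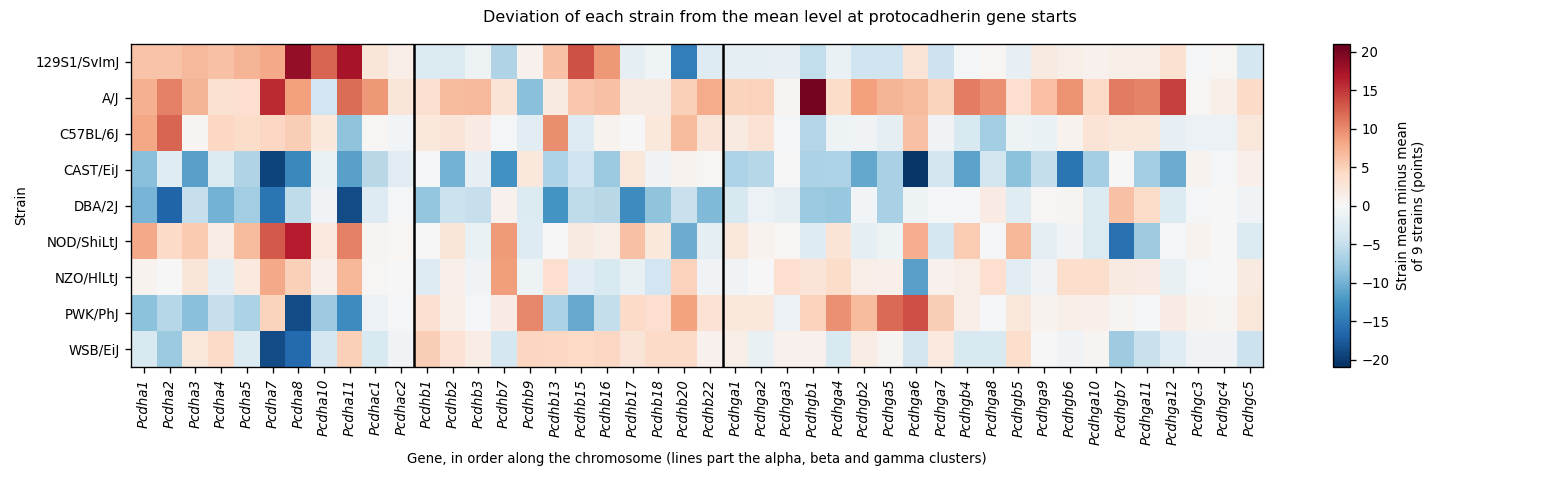
Deviation of each strain's mean from the mean of 9 strains, in percentage points, at the 44 measured gene starts (x axis, genes in order along the chromosome; y axis, strains; red above and blue below the mean). The A/J row is above the mean at 42 of 44 starts, and the PWK/PhJ row changes from mostly below the mean in alpha to mostly above it in gamma.

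Cluster means were also taken per sample, over all positions of a cluster. In alpha 4 strains were low, with CAST/EiJ at 26.6% ± 0.934, PWK/PhJ at 27.4% ± 0.534, DBA/2J at 29.2% ± 0.548 and WSB/EiJ at 29.9% ± 1.08 (SD, n = 3). The other 5 were higher, with NZO/HlLtJ at 34.8% ± 1.17, C57BL/6J at 35.6% ± 0.838, NOD/ShiLtJ at 37.1% ± 1.42, A/J at 38.8% ± 1.19 and 129S1/SvImJ at 38.9% ± 2.03. WSB/EiJ and NZO/HlLtJ, the neighbours across this step of 4.99 points, did not overlap, nor did PWK/PhJ and DBA/2J, and the other neighbours in the order overlapped. Over alpha starts without the C-type, which leave out the tile in Gm36858, the same 4 strains were lowest in another order, but WSB/EiJ and NZO/HlLtJ, 4.89 points apart, overlapped, as did every other pair of neighbours. The span of alpha strain means was 12.2 points, against a pooled SD within strains of 1.17 points. Over the autosomes the span was 1.34 points, but that mean was over 1903645 positions, so it does not show the span of other local stretches.

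In gamma A/J was highest, at 33.5% ± 1.2, and PWK/PhJ next, at 30.3% ± 0.819. CAST/EiJ was lowest, at 23.1% ± 1.85. None of these 3 overlapped with a neighbour in the order, and the other 6 strains lay between 26.6 and 28.9% with every neighbour overlapping. In beta DBA/2J was lowest, at 56.5% ± 0.499, and A/J highest, at 67.7% ± 2.11, and every pair of neighbours in the order overlapped. With 3 samples in each strain no pair of strains can be told apart by an exact permutation test at 0.05, as the smallest two-sided p it allows is 0.10.

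**Figure D5:**
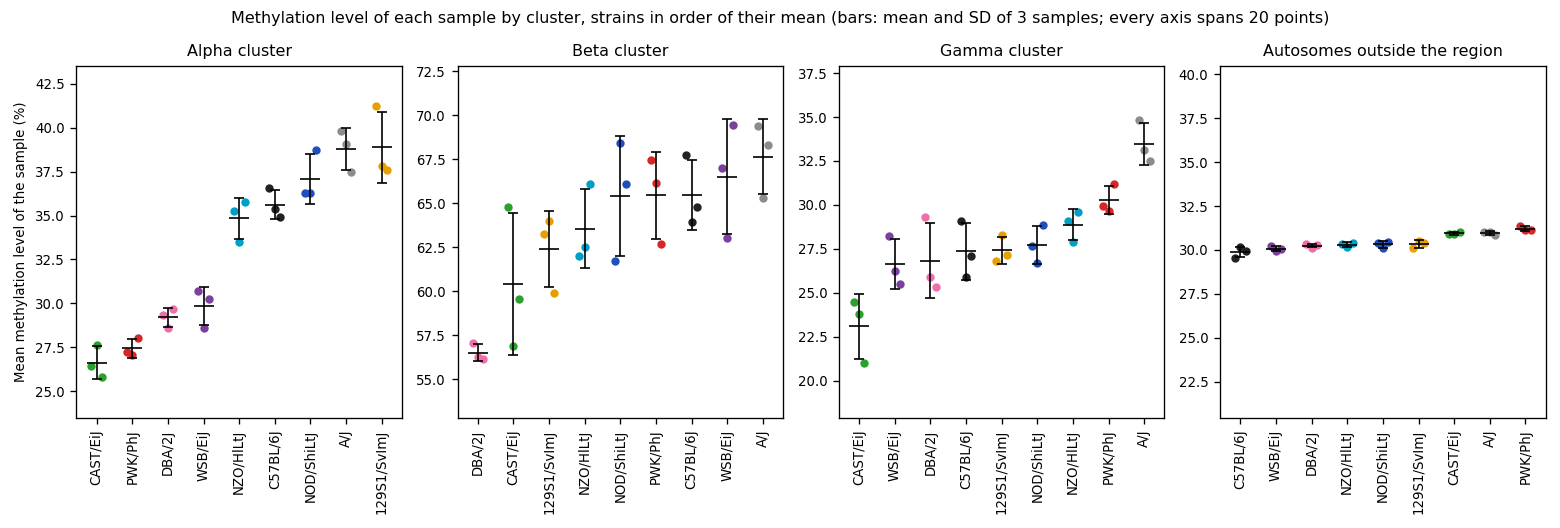
Mean methylation level of each sample (points, y axis in percent, not starting at 0) in the alpha, beta and gamma clusters and over the autosomes outside the region, strains ordered by their mean, with bars for the mean and SD of 3 samples. The 4 lowest strains in alpha lie under 30.8%, and the autosomal means of all samples lie between 29.6 and 31.4%.

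Strain means were also taken in both parts of the variable exons, without a test. In alpha without the C-type the first 500 bp had strain means from 24.3% in PWK/PhJ to 49.4% in 129S1/SvImJ, a span of 25.1 points, and the part from 500 bp to 3 kb spanned 16.1 points, from CAST/EiJ to A/J. In gamma the spans were 12.0 and 16.5 points, from CAST/EiJ to A/J in both parts. In beta they were 9.81 and 11.6 points, with DBA/2J lowest in both, and in the first 500 bp of beta its samples, at 32.5 to 43.1%, overlapped those of NZO/HlLtJ, CAST/EiJ, PWK/PhJ and NOD/ShiLtJ. Pooled SDs within strains lay between 1.95 and 4.26 points in these 6 sets.

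Windows of 100 kb, added after the data were seen, gave a test of levels along the region with p adjusted over 12348 windows. Of the 9 windows measured, 8 had an adjusted p under 0.05 (limma), beside 46.6% of all windows. The lowest was that starting at 36900001, which holds the starts of Pcdha1 to Pcdha9 (156 positions, span 20.4 points, adjusted p = 4.89e-09), followed by that starting at 37700001, which holds the starts of Pcdhga6 to Pcdhga12 (302 positions, span 17.3 points, adjusted p = 1.35e-05). The window starting at 37500001, which holds the last beta genes, did not pass (adjusted p = 0.319). Of its 43 positions, 5 lay within 3 kb of the start of Pcdhb20 and 8 within 3 kb of that of Pcdhb22. Most of its positions thus lay away from these starts.

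At finer scale 13 of 78 tiles of 1 kb met the stricter call (16.7%), beside 7.81% of all tiles, and 31 (39.7%) had an adjusted p under 0.05, beside 21.2%. Among tiles with a mean of 10 to 90% the shares were 17.8 and 15.6%. Of the 13 tiles 5 lay in alpha, 8 in gamma and none in beta, where 13 tiles were tested, and without CAST/EiJ replicate 5 the count was 8 (10.3%, beside 7.73% of all tiles). Of single positions, 37 of 1113 met it (3.32%), beside 4.34% of all positions tested. At an adjusted p under 0.05 alone there were 38, beside 4.68% of all. In the range of 10 to 90% the shares were 4.25 and 8.47%. With untransformed percentages the shares over all tested positions were 5.48 and 5.47%, and with no filter on the mean 2.66 and 2.03%, so that the order of region and genome depended on these settings. CAST/EiJ was the lowest strain at 13 of the 37 positions, and A/J the highest at 10. Of the 37, 10 lay between 36980326 and 36980446, and 8 lay nearest to Pcdha8. Neighbouring positions and opposite strands of a CpG are not independent, so these counts rest on few separate places.

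The tile with the widest span lay outside the members' exons, from 36980001 to 36981000, within the pseudogene Gm36858 between Pcdha7 and Pcdha8. Its level was 36.1, 36.1 and 31.5% in CAST/EiJ, 40.9, 36.6 and 46.8% in PWK/PhJ, and 49.4, 51.5 and 39.3% in WSB/EiJ. The 18 samples of the other 6 strains lay between 72.4 and 94.5%. The groups of samples did not overlap, and strain means spanned 56.8 points (adjusted p = 3.76e-08, limma). Among the other 6 strains alone the span was 8.39 points (adjusted p = 0.759). Of its 15 positions 13 had the means of the 3 wild-derived strains below those of the other 6. Of 16 positions listed there in all C57BL/6J samples, 1 was listed in no CAST/EiJ sample and none was missing in this way from another strain.

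Of the other called tiles, 4 held the same positions as a called start, namely those of Pcdha8, Pcdha11, Pcdhga6 and Pcdhgb1, or lay within it, as at 37752001 in Pcdhgb7, where NOD/ShiLtJ was at 21.2% and A/J at 58.7% (adjusted p = 0.000762, limma). The tile at 37757001 in Pcdhga11 ran from 17.4% in CAST/EiJ to 45.3% in A/J (adjusted p = 0.0192, limma) and was lost without CAST/EiJ replicate 5 (0.0852), without A/J (0.0714), and without CAST/EiJ and PWK/PhJ (0.345). The tile at 37824001, downstream of the start of Pcdhgc5, ran from 9.71% in NOD/ShiLtJ to 40.7% in DBA/2J (adjusted p = 0.0281, limma) and was lost without DBA/2J replicate 2 (0.0771), DBA/2J replicate 4 (0.0576) or NOD/ShiLtJ replicate 1 (0.0608), without A/J (0.0567), without DBA/2J (0.162), without CAST/EiJ and PWK/PhJ (0.0624), and with an offset of 1 (0.0627). The tile at 36930001, over the start of Pcdha1, ran from 28.5% in PWK/PhJ to 57.04% in 129S1/SvImJ (adjusted p = 0.0366, limma). Leaving out any of 10 samples moved its adjusted p to between 0.0501 and 0.0993: all 3 of 129S1/SvImJ, A/J replicates 1 and 3, CAST/EiJ replicates 1 and 5, PWK/PhJ replicates 1 and 3, and WSB/EiJ replicate 3. It was also lost without A/J (0.0593), without CAST/EiJ and PWK/PhJ (0.335) and among tiles of at least 3 positions (0.0542).

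The strains also differed in which positions had a value, which a sequence variant at a CpG can alter along with the percentage. In alpha, 445 positions had a value in every C57BL/6J sample. Of these, 14.2% had none in PWK/PhJ, 10.6% none in WSB/EiJ and 9.21% none in CAST/EiJ, and 1.35 to 2.02% had none in each of the other strains. In gamma the shares were 13.6% for DBA/2J, 12.7% for CAST/EiJ, 11.3% for NOD/ShiLtJ, 10.8% for A/J and 5.39% for PWK/PhJ, and at most 0.423% for 129S1/SvImJ, NZO/HlLtJ and WSB/EiJ. In beta they ran from 12.1% for DBA/2J to 29.3% for CAST/EiJ. Strains with many unlisted positions included the lowest strains of alpha and both the highest and the lowest strain of gamma, while DBA/2J, low in alpha, lacked 1.35%. The part of sequence differences in the levels was not tested.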

How the data were processed

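Genomic DNA of 27 hepatocyte samples (3 per strain) was digested with MspI and bisulfite-treated with a commercial kit, per the labels' protocols. The submitters' processing notes name Trim Galore 0.6.3, Bowtie2, Bismark 0.22 and the builds GRCm38 and mm10. For each sample the authors deposited a percentage of methylation per position, without counts or coverage. Any coverage filter is not given in the sources used here, and no counting interval can be formed.

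Gene names and positions came from the RefSeq table of GRCm38.p6, which gives no strand, so the lower-coordinate end was taken as the start of each protocadherin gene. The members and gene lists were chosen with earlier results of these data known.

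Levels were means of positions, with each sample taken as its deviation from the mean of each position, so that a position without a value in a sample did not shift its level. Differences among strains were tested on log2((percent + 5)/(100 - percent + 5)) with limma's moderated F statistic for strain (8 and 18 degrees of freedom before the prior), over positions, 1 kb tiles and gene ends with at least 5 positions, and 100 kb windows with at least 20. Features with a mean between 2.5 and 97.5% were tested, and p was adjusted by Benjamini and Hochberg over the autosomes and the X chromosome. A feature was called at an adjusted p under 0.05 and a span of strain means of at least 25 points. Starts at an adjusted p under 0.05 alone, the 100 kb windows and the split at 500 bp were added after the data were seen.

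Software was pandas 2.3.3, scipy 1.17.1 and numpy 2.4.6 under Python 3.11.15. A comparison was run with limma 3.58.1 (R 4.3.3): of 15175 gene ends, both gave the same 5159 under 0.05 and 0 fell on different sides. On simulated data with 200 of 15137 ends shifted by 20, 30 or 40 points, 86, 96 and 98% were found. Figures were drawn with matplotlib 3.10.9. The planned permutation test of cluster means was not reported, since no p is given for a score over chosen members, and strain means with their SD were given in its place. Named genes are the C-type genes, called starts, the 3 highest and 3 lowest starts of each cluster, the 8 called tiles with the widest span, and called ends of the fixed gene lists. Other genes are named to account for every member, or were chosen after their values were seen. Sequences of these genes are not shown.

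Same-numbered samples of different strains did not deviate together, so the reported tests have no replicate block. The alternatives tried were another offset, untransformed percentages, positions with a value in every sample, other minimum position numbers and spans, narrower windows or those inside genes, no filter on the mean, strands averaged, plain means, levels relative to the autosomes, other bounds of the intermediate range, the replicate number as a block, left-out strains, and each sample left out in turn.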

Additional observations from a re-analysis of the deposited data

How the results depend on the processing

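Of 1696 values recomputed under alternatives, 1590 stayed the same. For a named start or tile this meant the same call, and for a count a value within a fixed factor of the reported one. For a level, share or span it meant a change below its SD. At named starts and tiles the difference between the reported highest and lowest strain was taken in percentage points. Another offset, untransformed percentages, another minimum span or the replicate block could therefore not change it. At Pcdhga6 it was 33.93 points both with untransformed percentages and with the block. Its sign could change only under settings that altered the levels and kept both strains, and 0 values reversed. Where either strain was left out the span was used, which has no sign. A start with a span under the required minimum could gain a call only where the span or this minimum changed. Part of the values that stayed the same was thus fixed in advance. The counts called moved with the settings, and the share called over the genome moved as well. The 37 of 1113 positions became 20 with an offset of 1 (1.80%, genome 2.90%), 61 with untransformed percentages (5.48%, genome 5.47%), 22 with a replicate block (1.98%, genome 3.19%), 14 without CAST/EiJ and PWK/PhJ (1.26%, genome 1.49%) and 6 without the 3 wild-derived strains (0.537%, genome 0.992%). The 13 of 78 called tiles became 30 at a minimum span of 10 points (38.5%, genome 18.1%), 5 of 42 with at least 10 positions (11.9%, genome 7.34%), 7 without A/J (8.97%, genome 7.32%), 4 without CAST/EiJ and PWK/PhJ (5.13%, genome 3.49%) and 3 without the wild-derived strains (3.85%, genome 2.54%). The 5 of 44 called starts became 24 at a minimum span of 10 points (54.5%, genome 15.1%), 2 of 32 with at least 10 positions (6.25%, genome 3.13%), 3 without A/J (6.82%, genome 3.43%), 3 without CAST/EiJ and PWK/PhJ (genome 1.92%) and 1 without the wild-derived strains (2.27%, genome 1.39%). The 26 starts with an adjusted p under 0.05 (limma) became 14 of 29 within 1 kb (48.3%, genome 34.7%), 13 without CAST/EiJ and PWK/PhJ (29.5%, genome 18.6%) and 10 without the wild-derived strains (22.7%, genome 13.3%). The cause of these changes was not tested, and some of these settings also held fewer strains or positions. With each sample left out in turn there were 30 to 43 positions, 8 to 14 tiles, 4 to 7 called starts, 22 to 26 starts under 0.05 and 7 to 8 windows.

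The alpha span of 12.2 points was 9.67 without CAST/EiJ and PWK/PhJ and 9.69 without the wild-derived strains. The beta span of 11.2 points was 7.26 without DBA/2J. The gamma span of 10.4 points was 6.82, 6.64 and 7.17 without CAST/EiJ and PWK/PhJ, without the wild-derived strains and without A/J. That of the region, 9.80 points, was 7.36, 7.36 and 6.03. The intermediate share of 40.8% was 26.4% for 30 to 70% and 55.3% for 10 to 90%, its excess over the autosomes 20.6 and 37.0 points, and its span of strain means, 4.27 points, was 5.66 and 6.29 points, or 5.68 over positions with a value in all samples.

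Replicate numbers did not pair the samples: the deviations of 76 same-numbered pairs of different strains correlated between −0.011 and 0.012, and 0 exceeded 0.1. With the number as a replicate block there were 9 tiles (11.5%, genome 7.23%), 4 called starts (9.09%, genome 3.67%), 20 starts under 0.05 (45.5%, genome 28.4%) and 7 windows (77.8%, genome 39.9%), and spans of 12.3, 10.9, 8.90 and 8.998 points in alpha, beta, gamma and the region. Pcdhga6 and the tiles at 36930001, 37707001 and 37757001 lost their call under the block, at adjusted p of 0.0768, 0.107, 0.0938 and 0.155. Depth could not be used, and 13 of 57 genes could not be tested.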

Other observations

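Other genes of the cadherin family differed from the clustered ones in level. Of 21 non-clustered protocadherins and large cadherins 19 had measured ends. Of their 27 ends, 5 lay between 20 and 80%, and the median was 7.17%. Of the 19 tested, 9 had an adjusted p under 0.05 and 1 (5.26%) met the stricter call (limma), beside 34% and 3.82% of all gene ends. It was the lower-coordinate end of Pcdh12, a protocadherin of endothelial cells, at 38267092 on chromosome 18, close to the clusters. Its level over 15 positions ran from 50.9% in NZO/HlLtJ and 56.2% in NOD/ShiLtJ to 78.3% in WSB/EiJ and 79.3% in PWK/PhJ (adjusted p = 0.000136, limma).

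Genes known to regulate the clusters, such as Ctcf, Rad21, Smchd1 and the DNA methyltransferases, had 15 measured ends. Of these, 6 had a mean under 2.5%. Of the 9 tested, 4 (44.4%) had an adjusted p under 0.05 and 0 met the stricter call (limma), beside 34% and 3.82% of all gene ends. Among partners of the cytoplasmic tails, such as Fyn, Ptk2 and Ret, 1 of 5 tested ends (20%) had an adjusted p under 0.05 and 0 met the stricter call. Of 76 tested Hox ends 0 met the stricter call, beside the same 3.82% of all gene ends. Whether these lists differ from all gene ends was not tested.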
